A study of Mus musculus with 16 samples.

Results

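RNAs for extracellular matrix proteins and for the proteases that cut them were examined in protrusions and cell bodies of NIH/3T3 cells, an established mouse embryonic fibroblast line. The members were chosen by gene symbol alone, namely collagens, laminins, fibulins, fibrillin, thrombospondins, Fn1, Sparc, Tnc, lysyl oxidases, matrix metalloproteinases (MMPs), tissue inhibitors of metalloproteinases (TIMPs) and ADAMTS genes. The symbols matched 71 of the 12900 RNAs in the table. They comprise 26 collagen chains, 7 laminin chains, 4 fibulins and fibrillins, 3 thrombospondins, 3 single glycoproteins, 5 lysyl oxidases, 8 MMPs, 3 TIMPs, 9 ADAMTS proteases, 2 ADAMTS-like proteins and Col4a3bp. Col4a3bp is a ceramide transfer protein and is no matrix protein, so only its symbol matched. Of the 71, 61 had a mean above 1 on the log2 CPM scale (CPM, reads scaled to a common library size) over the 16 samples.

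Matrix proteins enter the endoplasmic reticulum while they are being translated, pass through the Golgi and are secreted. Fibroblasts are a main source of collagen I, collagen III, collagen VI and fibronectin in connective tissue. Collagens are trimers of chains built of Gly-X-Y repeats, laminins are heterotrimers of an alpha, a beta and a gamma chain, and lysyl oxidases cross-link collagen and elastin outside the cell. MMPs and ADAMTS proteases cut matrix proteins, and TIMPs inhibit them.

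Both stable lines carried a doxycycline-inducible gene with the human β-globin coding sequence, delivered by lentivirus. In the HBB line this coding sequence was followed by the HBB 3′UTR, and in the Pkp4 cUTR line by the mouse Pkp4 3′UTR, taken from an RNA that localizes to protrusions. All samples had received 1 µg/ml doxycycline for 3 days, were serum-starved, plated for 2 h on filters with 3.0 µm pores, given lysophosphatidic acid (LPA) for 1 h and fixed for 10 min in 0.3% paraformaldehyde. Protrusions (Ps) were collected from the lower side of the filter and cell bodies (CB), with the nuclei, from the upper side, with 4 replicates for each of the 4 groups. Each construct was present in 1 stable line, so an effect of the construct and a difference between the lines cannot be told apart. The questions were whether RNAs differ between Ps and CB, and whether this difference changes with the Pkp4 cUTR.

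Reads counted over the 12900 RNAs of the table were 18660287 to 31260831 per sample, which is not the full sequencing depth. With the authors' scaled library sizes, 3 reads correspond to 0.0890 to 0.176 CPM. Of 10 fibroblast markers 8 were measured, and their summed level was 8710 to 15466 CPM, most of it from Vim. The 3 measured endothelial markers summed to 1.10 to 2.92 CPM, the 4 leukocyte markers to 42.3 to 55.7 CPM and the 3 epithelial markers, with Krt8 among them, to 155 to 285 CPM. The 3 measured nuclear-retained RNAs, with Malat1 and Neat1 among them, summed to 160 to 315 CPM in Ps and to 476 to 723 CPM in CB, so the fractions differed in nuclear RNA in the same direction as the matrix RNAs described here. The part of nuclear RNA in the matrix results was not tested. In 52 of the 71 members HBB Ps replicate 3 was the lowest of its group, and Pkp4 cUTR Ps replicate 3 was the lowest in 44. Replicate 4 was the lowest CB sample for 47 members in HBB cells and for 52 in Pkp4 cUTR cells. Counts without these samples are given beside the results.

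A sequence feature shared by 4 fibrillar collagen RNAs is shown here because these RNAs are among the most abundant members. The start codons of the collagen I and collagen III mRNAs lie in a stem-loop, which is bound by the RNA-binding protein LARP6. In the windows of 21 bases that end with the start codon, written 5′ to 3′ on the sense strand from GENCODE vM21 transcripts (GRCm38), the arms CATGTCT and AGACATG are in capitals. The arms are reverse complements of each other, are separated by 7 bases, and the last 3 letters are the start codon.
Col1a1, chr11:94936351-94936371, plus strand: CATGTCTagggtctAGACATG
Col1a2, chr6:4505822-4505842, plus strand: CATGTCTaagtggtAGACATG
Col3a1, chr1:45311730-45311750, plus strand: CATGTCTgatatttAGACATG
Col5a2, chr1:45502912-45502932, minus strand: CATGTCTcatatttAGACATG
For comparison, the same windows of 2 abundant members without the arms, with only the start codon in capitals, were as follows.
Col5a1, chr2:27886798-27886818, plus strand: cccgcgcaccccgccggcATG
Fn1, chr1:71652980-71653000, minus strand: tcctcccatccactcaagATG
Among 10910 measured RNAs with a principal transcript long enough for this window, 4 had both arms at these positions, which is 0.0367%. All 4 were members, of 68 members with such a window. Anywhere in the transcript the pattern was also found in 4. The Ps over CB values of these 4 RNAs are given below beside those of RNAs without the arms.

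Together the members took 4.87% ± 0.443 (SD, n = 4) of the reads counted over all 12900 RNAs in HBB CB and 1.95% ± 0.272 in HBB Ps. In Pkp4 cUTR cells they took 4.44% ± 0.638 in CB and 1.85% ± 0.250 in Ps. Per kilobase of annotated exon, Col1a1 (collagen I alpha 1) had the highest mean level in HBB CB, at 1226 ± 122 CPM per kb. Sparc, a collagen-binding glycoprotein, followed with 891 ± 69.1, and Mmp2, the gelatinase A gene, with 737 ± 37.6 CPM per kb. Fn1 (fibronectin) had 660 ± 97.5 and Col6a1 597 ± 61.1 CPM per kb, and neither Mmp2 and Fn1 nor Fn1 and Col6a1 differed beyond their spread. In HBB Ps the order at the top was different, with Sparc at 705 ± 35.8 CPM per kb above Col1a1 at 513 ± 49.5. The lowest level in HBB CB was that of Col27a1, with 0.0641 ± 0.0199 CPM per kb.

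In HBB cells, matrix RNAs were lower in Ps than in CB. By limma-voom with Benjamini-Hochberg adjustment over all 12900 RNAs, 60 of the 71 members (84.5%) fell at an adjusted p under 0.05, against 28.9% of all RNAs. In the other direction 2 members passed, against 28.3% of all RNAs, of which Adamts13 is described below, and 9 members passed in neither direction. The fall was over 2-fold for 36 members (50.7%), against 3.92% of all RNAs, and no member rose over 2-fold, against 4.33%. The median member had a log2 fold change of -1.0, and the median of all RNAs was 0.01. The 4 Ps samples lay below the 4 CB samples without overlap for 56 members (26.8% of all RNAs) and above them for 3 (25.5%). By the study's rule, over 2-fold at an unadjusted p under 0.05, 36 fell (4.0% of all RNAs) and none rose (4.54%). CPM are shares of a fraction's RNA, so a lower amount of one RNA and a higher amount of the rest cannot be told apart. Without Ps replicate 3 of both lines 59 members fell and 3 rose, and without CB replicate 4 of both lines all 62 calls were retained.

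In Pkp4 cUTR cells 55 members (77.5%) were lower in Ps, against 28.5% of all RNAs, and the median member was at -0.86. In the other direction 3 members passed, Timp1 and Col4a3bp among them, against 28.2% of all RNAs, and 13 members passed in neither direction. The fall was over 2-fold for 29 members (40.8%), against 2.85%, and no member rose over 2-fold, against 4.88%. The 4 Ps samples lay below the CB samples without overlap for 46 members (22.2% of all RNAs) and above them for 2 (22.6%). By the study's rule 29 fell (2.92% of all RNAs) and none rose (5.07%). All 55 members that fell in this line also fell in the HBB line, and 7 members passed in neither line. No member was called in opposite directions. Across the 71 members the log2 fold changes of the lines had a Pearson's r of 0.93 and a Spearman's rho of 0.93, as a description over RNAs from the same libraries. Without Ps replicate 3 of both lines, 50 members fell and 2 rose, and Tnc, Col18a1, Timp1, Adamts1, Adamts14, Col11a1 and Loxl4 were no longer called. Without CB replicate 4 of both lines all 58 calls were retained.

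**Figure D1:**
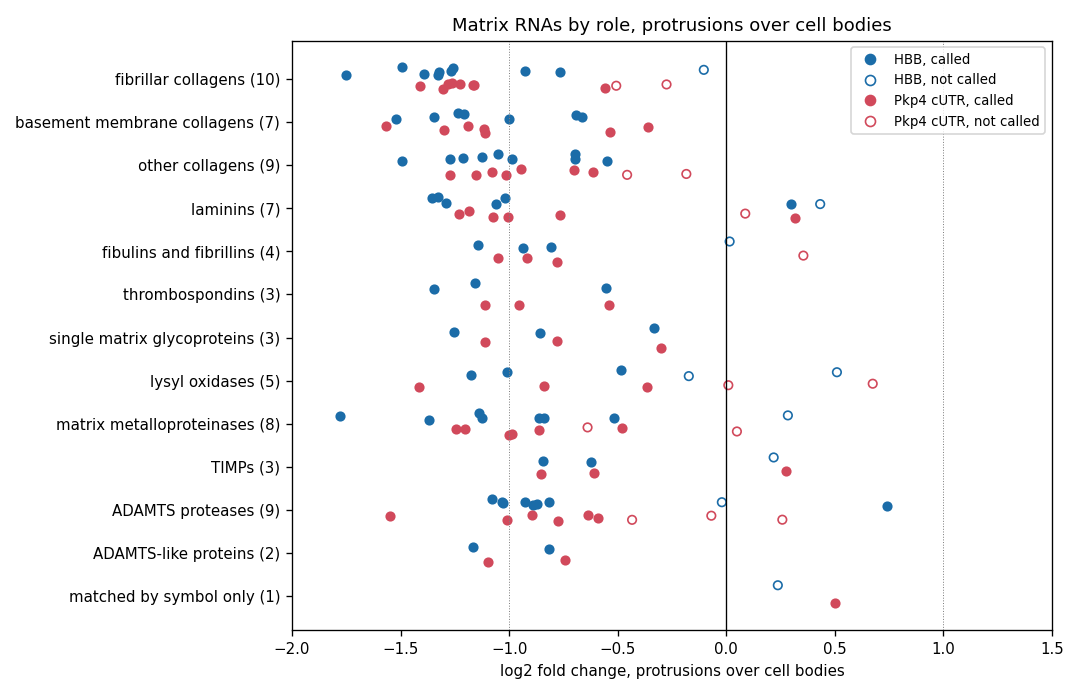
Log2 fold change of Ps over CB (x axis) for the 71 members by role (y axis, number of members in brackets), in HBB cells (blue) and Pkp4 cUTR cells (red), with filled points for an adjusted p under 0.05 and dotted lines at a 2-fold change. Nearly all points lie to the left of 0, and the few to the right include Adamts13 of HBB cells among the ADAMTS proteases.

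The 26 collagen chains pooled had lower medians than any of the other roles, though the 9 chains outside fibrils and basement membranes, with -1.05 and -0.95, did not. Of the 26 chains, 25 fell in HBB cells (28.9% of all RNAs) and 22 in Pkp4 cUTR cells (28.5%). None rose (28.3% and 28.2%), and the medians were -1.21 and -1.11. The chains of collagen I, the main fibrous collagen, had similar values. Col1a1 (chr11:94936224-94953042, GRCm38) was measured at 13.12, 13.01, 12.98 and 12.77 log2 CPM in the 4 HBB CB samples and at 11.78, 11.81, 11.49 and 11.76 in HBB Ps. In Pkp4 cUTR cells it was at 12.84, 13.05, 12.95 and 12.38 in CB and at 11.80, 11.66, 11.41 and 11.67 in Ps. Every Ps sample was below every CB sample, and the log2 fold change was -1.26 (SE 0.127, adjusted p = 2.64e-07) in HBB cells and -1.17 (SE 0.126, adjusted p = 7.25e-07) in Pkp4 cUTR cells by limma-voom. Col1a2, the other chain of the trimer, was at 12.35, 12.30, 12.29 and 12.10 log2 CPM in HBB CB and at 10.98, 11.09, 10.66 and 10.99 in HBB Ps. Its log2 fold change was -1.33 (SE 0.110) in HBB cells and -1.30 (SE 0.110) in Pkp4 cUTR cells.

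Ps over CB values of the RNAs with the inverted repeat at the start codon were set beside those of 4 abundant members without it. In HBB cells, log2 Ps over CB was -1.26 for Col1a1, -1.33 for Col1a2, -1.39 for Col3a1 and -1.32 for Col5a2, all with the repeat. Without it, Col5a1 was at -1.27 (SE 0.127), Fn1 at -1.25 (SE 0.140), Col6a1 at -1.13 (SE 0.133) and Sparc at -0.33 (SE 0.0867). The 4 RNAs with the repeat were at -1.17, -1.30, -1.26 and -1.28 in Pkp4 cUTR cells, Col5a1 was at -1.16, Fn1 at -1.11, Col6a1 at -1.02 and Sparc at -0.30. Col5a1 and Fn1 were thus near the RNAs with the repeat, and Sparc was far nearer to 0. Col6a1 was slightly nearer to 0, and given the standard errors it was not separated from Col1a1 (SE 0.127 in HBB cells). No test of the repeat was made.

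Among the fibrillar collagens, 9 of 10 fell in HBB cells, against 28.9% of all RNAs. Col11a2, a chain of the cartilage collagen XI, had the largest fall among members with a mean above 1 log2 CPM, from 5.46, 5.39, 5.68 and 5.55 log2 CPM in HBB CB to 3.77, 3.94, 3.33 and 4.02 in HBB Ps. The log2 fold change was -1.75 (SE 0.134, adjusted p = 1.38e-08 by limma-voom) in HBB cells and -1.41 (SE 0.139) in Pkp4 cUTR cells. Col5a3, a minor chain of collagen V, was at -1.49 (SE 0.114) and -1.23 (SE 0.121). Col27a1 was the one fibrillar collagen not called in HBB cells, with -0.10 (SE 0.344) at a mean of -1.0 log2 CPM. Col2a1, the main cartilage collagen, fell in HBB cells with -0.93 (SE 0.300) and was not called in Pkp4 cUTR cells with -0.51 (SE 0.384), also at few reads. Col11a1, the partner of Col11a2, was at -0.76 (SE 0.217) and -0.56 (SE 0.219). Its Pkp4 cUTR call was lost without Ps replicate 1, 3 or 4 or CB replicate 1 or 2 of that line.

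All 7 basement membrane collagens fell in both lines, against 28.9% and 28.5% of all RNAs, with medians of -1.21 and -1.11. Col4a1 and Col4a2, which form the common collagen IV trimer and are transcribed from one shared promoter in opposite directions, were at -1.23 (SE 0.130) and -1.21 (SE 0.122) in HBB cells. Col4a5 had the largest fall of this group, with 7.98, 8.05, 7.91 and 7.62 log2 CPM in HBB CB and 6.33, 6.62, 6.05 and 6.46 in HBB Ps, a log2 fold change of -1.52 (SE 0.162). Col18a1, the source of endostatin, and Col7a1, the anchoring fibril collagen, fell less, with -0.67 (SE 0.101) and -0.69 (SE 0.0997). Col4a6, the partner of Col4a5, was at -1.35 (SE 0.132), and Col4a4 at -1.0 (SE 0.165). Among the 9 other collagens, the chains of the beaded-filament collagen VI fell together, with -1.13 for Col6a1, -1.05 for Col6a2 and -1.27 for Col6a3 in HBB cells. Col16a1 (collagen XVI) had the smallest adjusted p of the members, 1.43e-09 by limma-voom, with 9.02, 8.96, 9.06 and 8.97 log2 CPM in HBB CB and 7.59, 7.61, 7.23 and 7.60 in HBB Ps. Col8a1 and Col9a3 fell in HBB cells and were not called in Pkp4 cUTR cells, where they were at -0.18 (SE 0.174) and -0.46 (SE 0.204). Col12a1, Col17a1 and Col20a1 fell in both lines, with -0.70, -0.70 and -1.21 in HBB cells.

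Most laminin chains were lower in Ps. Lamb1, Lamb2, Lamb3, Lamc1 and Lama5 fell in both lines, in HBB cells by 1.02 (Lama5) to 1.35 (Lamb2) on the log2 scale. Lamb3, a beta chain, was at 1.49 CPM in HBB CB and fell, with -1.33 (SE 0.312) in HBB cells. Lamc3 was not called in either line, with 0.43 (SE 0.221) and 0.09 (SE 0.253) at 12 to 35 reads per sample.

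**Figure D2:**
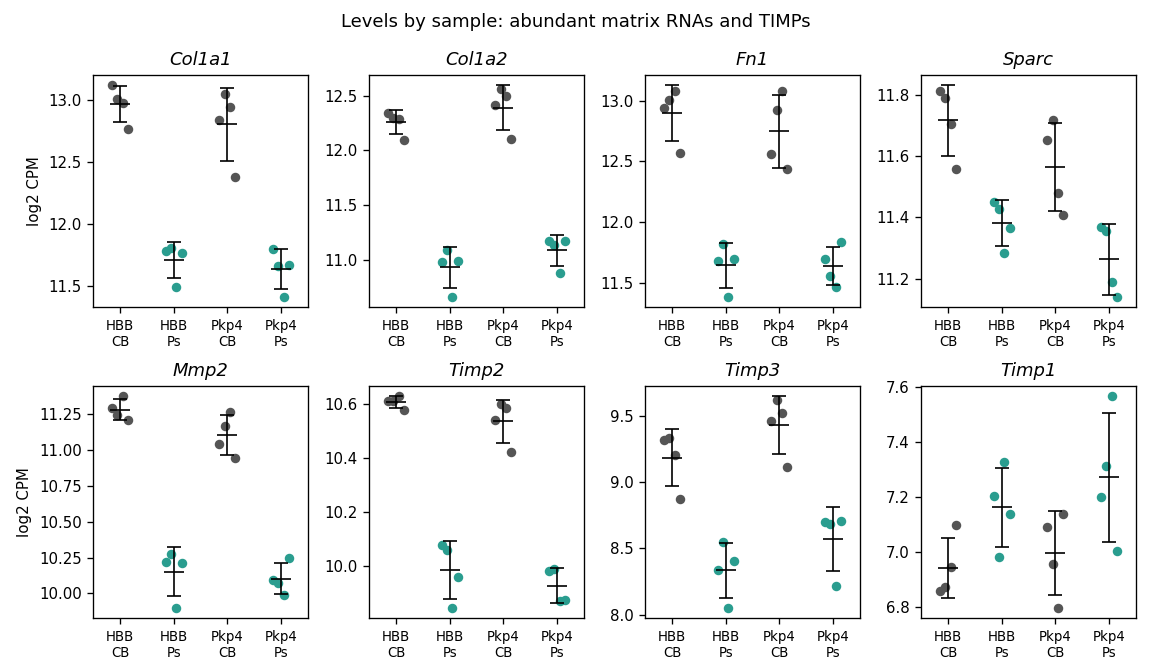
Log2 CPM (y axis) in each of the 16 samples for 8 members, by line and fraction, with points for single samples (grey CB, green Ps) and bars for the mean ± SD (n = 4). For Col1a1, Col1a2, Fn1, Sparc, Mmp2, Timp2 and Timp3 the Ps points lie below the CB points in both lines, and the Timp1 groups overlap. The y axes differ between panels and do not start at 0.

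Glycoproteins that organize fibres and cell contacts fell to different degrees. Fn1 (chr1:71585520-71653200) was at 12.94, 13.00, 13.08 and 12.57 log2 CPM in HBB CB and at 11.68, 11.82, 11.38 and 11.69 in HBB Ps, with a log2 fold change of -1.25 (SE 0.140, adjusted p = 7.78e-07 by limma-voom). Sparc (chr11:55394500-55423183) fell far less, with 11.81, 11.79, 11.70 and 11.56 in HBB CB and 11.45, 11.43, 11.28 and 11.37 in HBB Ps, a log2 fold change of -0.33 (SE 0.0867). In Pkp4 cUTR cells Sparc was at -0.30 (SE 0.0859). Fbln2, Fbln5 and Fbn1 of the elastic fibre and microfibril system fell in both lines, with -1.14, -0.81 and -0.94 in HBB cells, whereas Fbln1 was at 0.02 (SE 0.127) and 0.36 (SE 0.178) and was not called. Of the annotated exon bases of Fbn1, 20.1% overlap a gene on the opposite strand, and whether reads were counted by strand is not given in the sources used here. All 3 thrombospondins fell in both lines, Thbs3 with -1.35 (SE 0.0972), Thbs2 with -1.16 (SE 0.101) and Thbs1 with -0.56 (SE 0.167) in HBB cells.

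Lysyl oxidases were split. Loxl3 and Loxl4 fell with -1.01 (SE 0.0882) and -1.18 (SE 0.433) in HBB cells, and Loxl1 with -0.48 (SE 0.0705). For Loxl3, 11.6% of the annotated exon bases overlap Htra2 on the opposite strand. Lox, the founding member, was not called, with -0.17 (SE 0.144) in HBB cells and 0.01 (SE 0.144) in Pkp4 cUTR cells, and Loxl2 was not called, with 0.51 (SE 0.343) and 0.68 (SE 0.416) at 4 to 20 reads per sample. The Loxl4 call in HBB cells was lost when HBB Ps replicate 1, 3 or 4, or HBB CB replicate 1 or 2, was left out.

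Of the 8 MMPs, 7 fell in HBB cells (28.9% of all RNAs) and 6 in Pkp4 cUTR cells (28.5%). Mmp2 (chr8:92827291-92853420) was at 11.29, 11.24, 11.37 and 11.21 log2 CPM in HBB CB and at 10.22, 10.27, 9.90 and 10.21 in HBB Ps. The Pkp4 cUTR values of Mmp2 were 11.04, 11.16, 11.26 and 10.94 in CB and at 10.10, 10.08, 9.99 and 10.25 in Ps. The groups did not overlap in either line, and the log2 fold changes were -1.13 (SE 0.0919) and -1.0 (SE 0.0911). Mmp14, the membrane-bound activator of pro-MMP2, fell by 0.84 and 0.86, and Mmp11 (stromelysin-3) by 1.14 and 0.99 on the log2 scale. Mmp28 was at -1.37 (SE 0.129) and -1.20 (SE 0.133), and Mmp19 at -0.52 (SE 0.0908) and -0.48 (SE 0.0960), and 12% and 22.3% of their annotated exon bases overlap a gene on the opposite strand. The largest value, -1.78 (SE 0.329) for Mmp23, rests on 3 to 34 reads per sample. Mmp9 (gelatinase B) fell in HBB cells with -0.86 (SE 0.214) and was not called in Pkp4 cUTR cells, with -0.64 (SE 0.424). Mmp15 was not called in either line, with 0.28 (SE 0.355) and 0.05 (SE 0.410) at 3 to 19 reads per sample.

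Of the inhibitors, Timp2 and Timp3 fell and Timp1 did not. Timp2, which takes part in the activation of pro-MMP2, was at 10.61, 10.61, 10.63 and 10.58 log2 CPM in HBB CB and at 10.08, 10.06, 9.85 and 9.96 in HBB Ps, a log2 fold change of -0.62 (SE 0.0689), and at -0.61 (SE 0.0686) in Pkp4 cUTR cells. Timp3, the matrix-bound inhibitor, was at -0.85 (SE 0.136) and -0.85 (SE 0.137), and 21.3% of its annotated exon bases overlap Syn3 on the opposite strand. Timp1 was at 6.86, 6.87, 6.94 and 7.10 log2 CPM in HBB CB and at 7.20, 6.98, 7.33 and 7.14 in HBB Ps, and the groups overlapped. The Pkp4 cUTR values were 7.09, 6.96, 6.80 and 7.14 in CB and at 7.20, 7.31, 7.57 and 7.01 in Ps. The log2 fold change was 0.22 (SE 0.106, adjusted p = 0.0867) in HBB cells and 0.28 (SE 0.106, adjusted p = 0.0346) in Pkp4 cUTR cells by limma-voom. With reads scaled to each sample's total, which moved the median of all RNAs to -0.23 and -0.25, it was -0.02 in HBB cells and 0.01 in Pkp4 cUTR cells, and the Pkp4 cUTR call was also lost without Ps replicate 2 or 3 or CB replicate 2 or 3 of that line.

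ADAMTS proteases fell in 7 of 9 cases in HBB cells (28.9% of all RNAs) and in 6 of 9 in Pkp4 cUTR cells (28.5%), with medians of -0.89 and -0.64. Adamts7, which cuts COMP, was at -1.08 (SE 0.137) and -1.01 (SE 0.140), and Adamts10, a microfibril-associated member, at -0.82 (SE 0.109) and -0.64 (SE 0.111). Adamts1 was at -0.87 (SE 0.302) and -0.90 (SE 0.291), with the HBB call lost without HBB Ps replicate 3 or 4 or HBB CB replicate 1 or 2. Adamts4, an aggrecanase, was at -1.03 (SE 0.192) and -0.78 (SE 0.204), and Adamts14, a procollagen N-proteinase, at -0.89 (SE 0.201) and -0.59 (SE 0.210). The Pkp4 cUTR call of Adamts14 was lost without Ps replicate 1 or 3 or CB replicate 1 or 3 of that line. Adamts12 was at -1.03 (SE 0.217) and -1.55 (SE 0.256), with 8 to 77 reads per sample. Adamts6, with 5 to 45 reads per sample, fell in HBB cells with -0.93 (SE 0.269) and was not called in Pkp4 cUTR cells with -0.43 (SE 0.319). Adamts5, another aggrecanase, was not called, with -0.02 (SE 0.134) and 0.26 (SE 0.137). Adamts13, the protease that cuts von Willebrand factor, rose in HBB cells, from 2.25, 2.24, 2.60 and 2.71 log2 CPM in CB to 3.05, 2.93, 3.42 and 3.34 in Ps. The log2 fold change was 0.74 (SE 0.172, adjusted p = 0.00127 by limma-voom), and it was not called without precision weights (adjusted p = 0.092) or after quantile normalization (adjusted p = 0.11). Pkp4 cUTR values of Adamts13 were -0.31, -0.60, -0.33 and -0.82 in CB and at 0.28, -2.28, -0.10 and -0.43 in Ps, where replicate 2 held 3 reads. The ADAMTS-like proteins Adamtsl4 and Adamtsl5, which lack the protease domain, fell in both lines, with -1.17 and -0.81 in HBB cells. Col4a3bp, the ceramide transfer protein, was at 0.24 (SE 0.113) in HBB cells and rose with 0.50 (SE 0.110) in Pkp4 cUTR cells.

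Other genes of the matrix pathway were compared from fixed lists. Beside the counts that follow, 28.9% of all RNAs fell and 28.3% rose in HBB cells. In Pkp4 cUTR cells these shares were 28.5% and 28.2%. Of 26 measured genes for the folding, modification and processing of collagen, 17 fell and none rose in HBB cells, and 18 fell and 2 rose in Pkp4 cUTR cells. Their medians, -0.41 and -0.38, were nearer to 0 than those of the collagen chains. Plod1, a lysyl hydroxylase, was at -1.06 (SE 0.111) and Bmp1, the procollagen C-proteinase, at -1.0 (SE 0.0823) in HBB cells. In Pkp4 cUTR cells Plod1 was at -0.92 (SE 0.111) and Lepre1, a prolyl 3-hydroxylase, at -0.87 (SE 0.0637), and Ppib (cyclophilin B) and Ctage5, which acts in collagen export, rose with 0.28 (SE 0.0989) and 0.24 (SE 0.0996). Of 16 proteoglycans, 9 fell and 2 rose in each line. Agrn (agrin) fell with -1.36 (SE 0.143) and Bcan (brevican), at few reads, with -1.92 (SE 0.437) in HBB cells. In Pkp4 cUTR cells Agrn fell with -1.19 (SE 0.145). Spock2 (testican-2), also at few reads with a mean of -1.66 log2 CPM, fell there with -1.26 (SE 0.473). In HBB cells Bgn (biglycan), at a mean of 10.64 log2 CPM, rose with 0.34 (SE 0.102), and Ogn (osteoglycin) with 0.84 (SE 0.287) at about 1 CPM. The same genes rose in Pkp4 cUTR cells, Bgn with 0.31 (SE 0.101) and Ogn with 1.32 (SE 0.359).

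Of 29 other matrix glycoproteins, 20 fell in HBB cells (28.9% of all RNAs) and 19 in Pkp4 cUTR cells (28.5%), with medians of -0.81 and -0.72. Cyr61 and Mgp rose in both lines, against 28.3% and 28.2% of all RNAs. Cyr61, a matricellular protein of the CCN family, was at 1.41 (SE 0.225) and 1.22 (SE 0.230). Pxdn (peroxidasin, which forms the sulfilimine bond of collagen IV) and Ltbp4, which binds latent TGF-beta, fell with -1.22 (SE 0.168) and -1.15 (SE 0.108) in HBB cells, and Pxdn and Nid1 (nidogen 1) with -1.09 (SE 0.167) and -1.07 (SE 0.196) in Pkp4 cUTR cells. Mgp (matrix Gla protein) was at 0.38 (SE 0.153) and 0.45 (SE 0.182). Of 19 other pericellular proteases and inhibitors, 13 and 11 fell, with Adam8 at -1.26 (SE 0.212) and -1.21 (SE 0.247) and Plat (tissue plasminogen activator) at -0.99 (SE 0.131) and -1.01 (SE 0.132). Htra1 rose with 0.36 (SE 0.112) and 0.34 (SE 0.112), and Htra3 rose in HBB cells with 0.19 (SE 0.0801). Of 19 collagen and fibronectin receptors, 14 fell in each line, with Dag1 (dystroglycan) at -1.23 (SE 0.150) and -1.17 (SE 0.149) and Itga5, the alpha chain of the fibronectin receptor, at -1.13 (SE 0.0826) and -0.95 (SE 0.0821). Ddr2, a receptor tyrosine kinase for fibrillar collagens, was the one receptor that rose, with 0.98 (SE 0.101) and 1.02 (SE 0.101).

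Matrix RNAs were compared with other RNAs whose protein starts with a hydrophobic stretch, as signal peptides do. Such a stretch was found in 55 of the 71 members (77.5%) and in 1628 of 11322 RNAs with a translated coding sequence (14.4%). The 1573 RNAs with the stretch that are not members had a median log2 Ps over CB of -0.34 in HBB cells and -0.33 in Pkp4 cUTR cells, and the 9694 RNAs without it had 0.01 and 0.02. Members without a detected stretch, among them Col1a1, Col1a2 and Col3a1, had medians of -0.98 and -0.84, beside the -1.0 and -0.86 of members with it. Col1a1 and Col1a2, which are secreted, had 2.46 and 2.48 on the hydropathy scale and missed the minimum of 2.5 narrowly, so the class without a stretch depends on this minimum. Col3a1 and Col6a1, secreted too, were farther below it at 1.96 and 2.0. The measure thus missed secreted proteins by a wider margin as well.

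**Figure D3:**
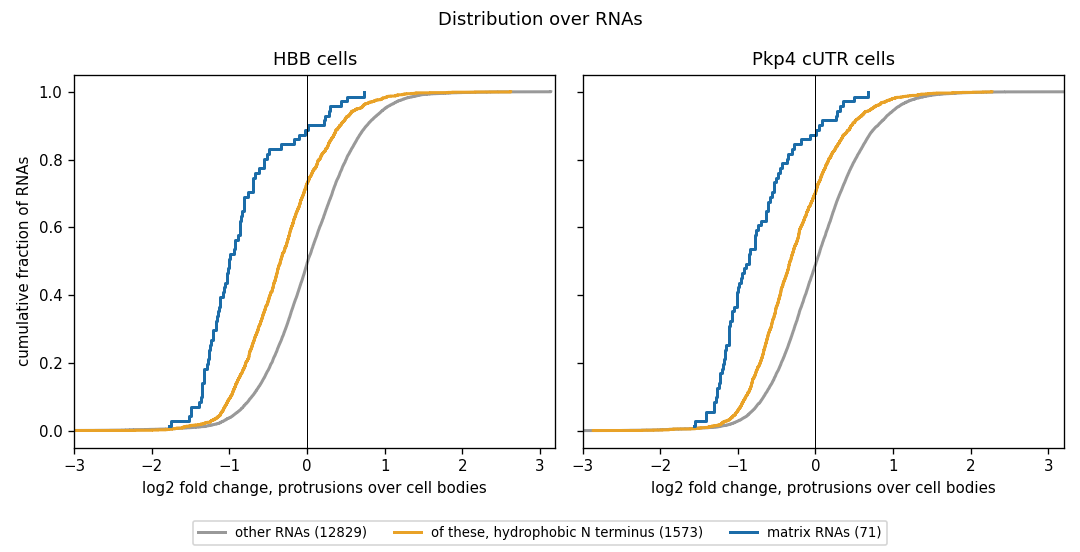
Cumulative fraction of RNAs (y axis) by log2 fold change of Ps over CB (x axis) in HBB cells (left) and Pkp4 cUTR cells (right), for the 71 matrix RNAs (blue), all other RNAs (grey) and, of these, the 1573 whose protein has a hydrophobic N terminus (orange). The blue curve lies to the left of the orange curve over most of its range, and the orange curve to the left of the grey one.

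The members also differ from other RNAs in length and base composition. Their proteins had a median of 1193 residues, against 457 over all RNAs, and the GC content of their transcripts had a median of 55.3%, against 50.9%. Over 9649 RNAs with a mean above 1 log2 CPM, log2 Ps over CB in HBB cells had a Spearman's rho of -0.39 with protein length and of -0.40 with GC content. Over the 61 members above this level the values were -0.45 and -0.35. These correlations run over RNAs of the same libraries, are given as descriptions, and their part in the difference between fractions was not tested.

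The difference of Ps over CB between the lines, which addresses whether the Pkp4 cUTR alters the distribution of other RNAs, was tested next. By limma-voom no member passed at an adjusted p under 0.05 in either direction (0.0% of all RNAs in each), and none passed with limma on the deposited values. At an unadjusted p under 0.05 there were 0 members and 300 of 12900 RNAs, and with a change over 2-fold besides 0.186% of all RNAs were higher and 0.147% lower. The log2 difference was above 0 for 59 of 71 members, with a median of 0.11, and for 6659 of all 12900 RNAs, with a median of 0.01. These counts are a description. The standard errors of single members had a median of 0.189. For Col1a1 it was 0.09 (SE 0.179), for Fn1 0.14 (SE 0.198) and for Mmp2 0.13 (SE 0.129). The smallest unadjusted p was that of Col18a1, with a difference of 0.31 (SE 0.155, adjusted p = 0.9997). Differences of Col11a2 and Col16a1 were 0.34 (SE 0.193) and 0.22 (SE 0.124), and those of Adamts13, Adamts12 and Lamc3 were -0.81 (SE 0.459), -0.52 (SE 0.335) and -0.35 (SE 0.336).

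Several matrix RNAs differed in level between the lines. Of the 71 members, 23 in CB (32.4%) were lower in Pkp4 cUTR cells than in HBB cells, against 5.55% of all RNAs, and none was higher, against 3.42%. In Ps, 12 members (16.9%) were lower, against 4.26%, and Lox and Col9a3 were higher, against 2.89%. The same 12 members were lower in both fractions. The fall was over 2-fold for 7 members in CB (1.02% of all RNAs) and for 5 in Ps (0.767%), and no member was over 2-fold higher in CB (0.202%) or Ps (0.248%). The study set its rule of over 2-fold at an unadjusted p under 0.05 for Ps over CB. Applied here between the lines, 8 members were lower in CB (1.26%) and 6 in Ps (1.16%), and none was higher in CB (0.279%) or Ps (0.372%). The 4 Pkp4 cUTR samples lay below the 4 HBB samples without overlap for 25 members in CB (8.11%) and 17 in Ps (7.4%), and above them for 0 in CB (6.49%) and for Col9a3 and Mmp14 in Ps (6.31%). Without CB replicate 4 of both lines, 17 of the 23 calls in CB were retained, and Adamts6, Col2a1, Col5a1, Loxl1, Loxl3 and Mmp28 were lost. Without Ps replicate 3 of both lines, 10 of the 14 calls in Ps were retained, all lower, and Col4a2, Mmp19, Lox and Col9a3 were lost. With the replicate number as a block, Mmp28 was not called in CB, Col8a1 was called lower and Lox higher there, and in Ps Col4a2 was lost and Col20a1 was called lower.

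Mmp9 and Adamts13 had the largest differences. Mmp9 (chr2:164940780-164955850) was at 3.39, 3.31, 4.10 and 3.89 log2 CPM in HBB CB and at 0.02, 0.65, 1.57 and 1.22 in Pkp4 cUTR CB, and at 2.42, 2.57, 3.12 and 3.15 in HBB Ps and 0.05, -0.05, 0.47 and 0.39 in Pkp4 cUTR Ps. No Pkp4 cUTR sample reached the lowest HBB sample of either fraction, and the log2 fold change was -2.81 (SE 0.282, adjusted p = 2.77e-06 by limma-voom) in CB and -2.59 (SE 0.382) in Ps. Adamts13 (chr2:26973416-27009628) differed by -2.94 (SE 0.305) in CB and -3.75 (SE 0.344) in Ps, again without overlap, with 3 to 211 reads per sample.

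Tnc (tenascin C), a glycoprotein that modulates cell adhesion, was at 3.33, 3.50, 3.41 and 2.96 log2 CPM in HBB CB and at 1.93, 2.24, 2.02 and 1.34 in Pkp4 cUTR CB, with -1.42 (SE 0.177) in CB and -1.34 (SE 0.241) in Ps. Thbs1 (thrombospondin 1) was at 7.43, 7.37, 7.14 and 6.64 in HBB CB and at 5.77, 6.08, 6.02 and 5.46 in Pkp4 cUTR CB, with -1.31 (SE 0.168) in CB and -1.30 (SE 0.174) in Ps. Both groups were apart in CB, and Thbs2 was lower by 0.97 and 0.77 on the log2 scale while Thbs3 was not called, with -0.06 (SE 0.0929) in CB and 0.17 (SE 0.101) in Ps. Fbln1 differed by -1.51 (SE 0.151) in CB and -1.17 (SE 0.159) in Ps, Col18a1 by -1.10 (SE 0.101) and -0.80 (SE 0.117), and Col12a1 by -0.80 (SE 0.113) and -0.80 (SE 0.141). Col5a2, Col4a2 and Mmp19 were also lower in both fractions, by 0.36 to 0.55 on the log2 scale. Their Ps calls depended on single samples. Col4a2 (adjusted p = 0.0477 by limma-voom) was not called there with total-read scaling, with quantile normalization or without any 1 of 11 samples, among them each HBB Ps sample. The Mmp19 call was lost without HBB Ps replicate 3 or 4 or Pkp4 cUTR Ps replicate 1 or 2, and the Col5a2 call without Pkp4 cUTR Ps replicate 3.

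The most abundant matrix RNAs did not pass between the lines. In CB, Col1a1 was at -0.16 (SE 0.131), Col1a2 at 0.13 (SE 0.114), Fn1 at -0.15 (SE 0.145), Sparc at -0.15 (SE 0.0878), Mmp2 at -0.17 (SE 0.0944) and Timp2 at -0.07 (SE 0.0703). Lox was higher in Pkp4 cUTR Ps, at 7.58, 7.83, 7.51 and 7.67 log2 CPM against 6.72 to 7.52 in the 4 HBB Ps samples, with 0.53 (SE 0.144). Col9a3 was higher there with 0.91 (SE 0.252). The groups of Lox overlapped by 1 sample, and without HBB Ps replicate 1, 3 or 4 or Pkp4 cUTR Ps replicate 4 neither Lox nor Col9a3 was called, and Lox was not called without Pkp4 cUTR Ps replicate 2 nor Col9a3 without Pkp4 cUTR Ps replicate 3.

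**Figure D4:**
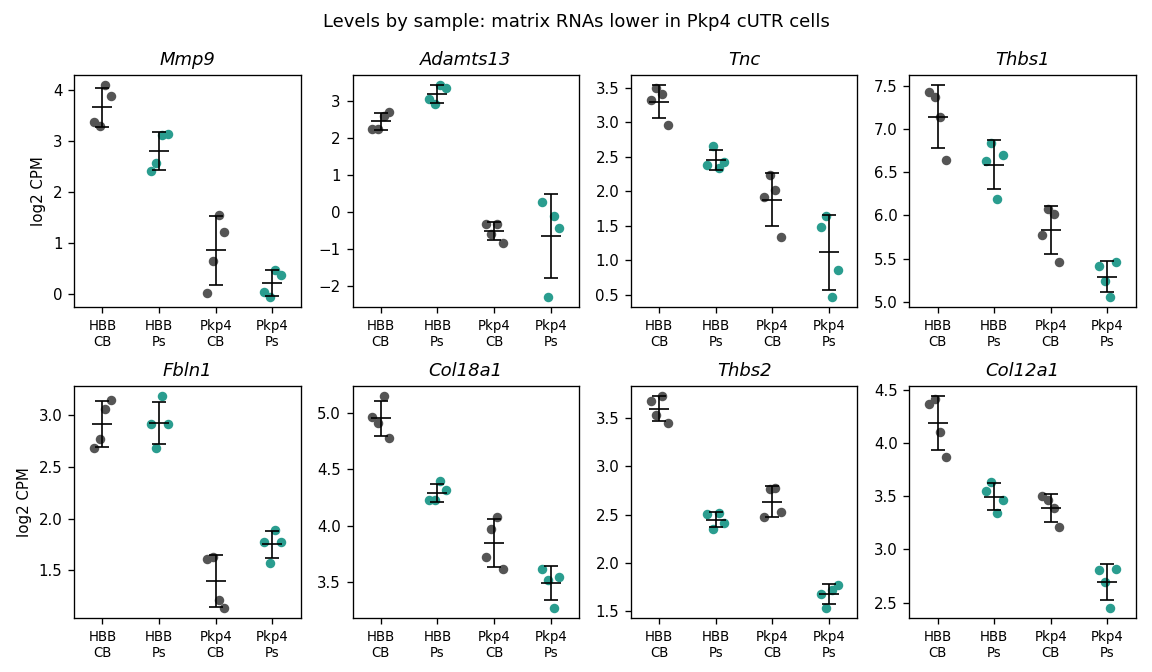
Log2 CPM (y axis) in each of the 16 samples for 8 members that were lower in Pkp4 cUTR cells in both fractions, with points for single samples (grey CB, green Ps) and bars for the mean ± SD (n = 4). In every panel the Pkp4 cUTR groups lie below the HBB groups of the same fraction. For Thbs2 and Col12a1 the HBB Ps and Pkp4 cUTR CB values overlap. The y axes differ between panels and do not start at 0.

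**Figure D5:**
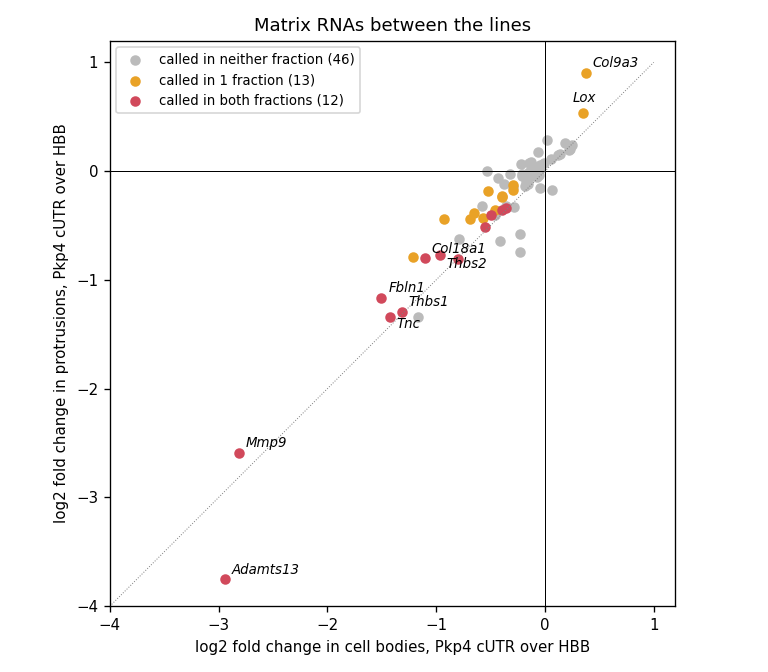
Log2 fold change of Pkp4 cUTR over HBB in CB (x axis) and in Ps (y axis) for the 71 members, with 12 members called in both fractions in red, 13 called in 1 fraction in orange and 46 called in neither in grey. Most red points lie near the dotted line of equal change. Adamts13, at -2.94 in CB and -3.75 in Ps, lies below it, and Fbln1 and Col18a1 lie somewhat above it. Mmp9 and Adamts13 are the farthest from 0.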

How the data were processed

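The authors sequenced TruSeq stranded libraries, called bases with bcl2fastq 1.8.4, aligned reads with STAR 2.4.2a to mm10 (GRCm38) and processed counts with limma 3.26.1, per the labels and the submitters' processing notes. They deposited log2 CPM values from limma-voom for 12900 RNAs. From these deposited log2 values whole reads were recovered for 100% of 206400 values, within 0.01 reads, together with the scaled library sizes (0.828 to 1.11 times the total). No column of the table was left unused. Recovered reads were fitted with limma-voom (limma 3.58.1, R 4.3.3) with 4 group means over all 16 samples, with the authors' scaled library sizes. Calls were made at a Benjamini-Hochberg adjusted p under 0.05 over all RNAs, and were also counted with a fold change over 2. Standard errors are on the log2 scale. The scripts were tested on simulated data.

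Members and lists were chosen with earlier results of these data known. Named members are the 20 highest per kilobase of exon, up to 8 per direction and comparison with a called change over 2-fold, 3 per direction with the smallest p of the difference between lines, Col4a3bp, and trimer partners of the abundant members. From each list of other matrix genes the 2 genes with the largest called change per direction are named. The other members are named after their values were seen, and 1 member is not reported here.

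GENCODE vM21 gave positions, lengths and transcripts. Of the RNAs 12321 matched by symbol, 446 by an older symbol and 133 did not match. A hydrophobic N terminus means a mean Kyte-Doolittle value of at least 2.5 over 8 residues within the first 35. Deviations from the group means correlated in every pair of samples with one number in both lines (r 0.331 to 0.628 in CB and 0.196 to 0.392 in Ps over 10154 RNAs), so the numbers pair samples between lines. The study describes the 4 replicates of each group as independent samples, all taken from 1 stable line per construct. Standard errors include the spread between these replicate samples. Alternatives were quantile normalization, scaling to total reads, no precision weights, log2(CPM + 1), a minimum mean level, a replicate block, the study's rule of over 2-fold with an unadjusted p under 0.05, and leaving out samples. Leaving out replicate 3 of both Ps groups was added after seeing the data.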

Additional observations from a re-analysis of the deposited data

Results flagged for a closer look

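In groups of 4 samples, 1 sample lay far from the other 3 (by Dixon's criterion for groups of 4) for 18 of 168 group values of the 42 named members. Chance alone flags about 1 in 20 groups, here 8.4. Values are log2 CPM, with the range of the other 3 samples. In HBB Ps replicate 3, Col1a1 was at 11.49 (others 11.76 to 11.81), Mmp2 at 9.90 (10.21 to 10.27) and Col16a1 at 7.23 (7.59 to 7.61). In Pkp4 cUTR Ps replicate 3, Col1a2 was at 10.88 (11.13 to 11.17), Col5a1 at 8.98 (9.32 to 9.39), Col5a2 at 7.92 (8.22 to 8.25), Timp3 at 8.21 (8.68 to 8.70), Col6a3 at 7.94 (8.28 to 8.32) and Col4a6 at 4.67 (5.11 to 5.13). In HBB CB replicate 4, Col6a2 was at 10.85 (11.10 to 11.14), Col6a3 at 9.19 (9.59 to 9.62) and Lamc1 at 7.72 (8.20 to 8.28). In Pkp4 cUTR CB replicate 4, Mmp23 was at -1.05 (-0.44 to -0.37), Loxl4 at -0.53 (0.98 to 1.29) and Lamb1 at 5.15 (5.53 to 5.55). These 15 values were lower than the others of their group. The other 3 were higher, namely Mmp11 at 6.71 (6.38 to 6.39) and Adamts12 at 0.35 (-0.34 to -0.23) in HBB Ps replicate 4, and Mmp14 at 8.62 (8.38 to 8.40) in HBB CB replicate 3.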

How the results depend on the processing

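Of the values of named members under the alternatives, 2666 kept their direction and their side of the threshold, 71 lost the call, 11 gained it and 17 changed sign. With reads scaled to each sample's total, 1 member was higher in HBB Ps and 0 in Pkp4 cUTR Ps, the member medians were -1.24 and -1.13, and 1 member was higher in Pkp4 cUTR Ps than in HBB Ps. Without precision weights 1 member was higher in HBB Ps, and with log2(CPM + 1) the member median there was -0.80. By the rule of over 2-fold with an unadjusted p under 0.05, 0 members were higher and 36 lower in HBB Ps, 0 higher and 29 lower in Pkp4 cUTR Ps, 8 lower in Pkp4 cUTR CB than in HBB CB, and 6 lower and 0 higher between the lines in Ps. Without replicate 3 of both Ps groups 0 members were higher between the lines in Ps. Leaving out 1 sample at a time gave 58 to 60 members lower and 2 to 3 higher in HBB Ps, 50 to 55 lower and 2 to 4 higher in Pkp4 cUTR Ps, 18 to 25 lower between the lines in CB, and 10 to 15 lower and 0 to 3 higher in Ps. The replicate block shared by the lines gave 1 member higher between the lines in CB, as described above, and 12 lower and 2 higher in Ps, with Col20a1 in place of Col4a2. In HBB cells, Ps and CB samples of the same number correlated weakly (0.0455 to 0.389, mean 0.178, against -0.0621 for different numbers). In Pkp4 cUTR cells they did not pair (lowest -0.362, mean -0.161, against 0.0611 for different numbers). A replicate block within each line gave 60 lower and 2 higher members in HBB Ps and 56 lower and 2 higher in Pkp4 cUTR Ps.

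Sign changes were seen for values near 0. In HBB Ps over CB, Timp1 was at -0.017, Fbln1 at -0.22 and Col4a3bp at -0.0025 with total reads, and Fbln1 at -0.018 with quantile normalization, at -0.064 without replicate 3 of both Ps groups and between -0.064 and 0.096 when 1 sample was left out. In Pkp4 cUTR Ps over CB, Lamc3 was at -0.18 with total reads, -0.035 with quantile normalization, -0.074 without CB replicate 4 of both lines and between -0.074 and 0.21 when 1 sample was left out. There Adamts13 was at 0.022 with log2(CPM + 1), at 0.12 and 0.050 with the replicate block within and across lines, and between -0.39 and 0.43 when 1 sample was left out, the highest without Ps replicate 2. The causes were not tested. Members with few reads, such as Mmp23, Col2a1, Loxl2 and Lamc3, are limited by depth.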
